A study of Mus musculus with 12 samples.

Results

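Expression of 10 genes of actin assembly was followed in the prefrontal cortex of mice after repeated cocaine. They were the Arp2/3 subunit genes Arpc1a, Arpc2, Arpc3, Arpc4, Arpc5, Arpc5l, Actr2 and Actr3, and the thymosin genes Tmsb4x and Tmsb10. They were chosen by name, with earlier results of these data known. All 10 were found at every time point, each in 1 row of the deposited table. They are 10 of 39666 named genes in the table at 2 h, 39716 at 24 h and 39647 at 7 d. The background of "all genes" in what follows is every named gene whose FPKM averaged 1 or more over both groups of a time, 13359, 13565 and 13429 genes, and all 10 genes passed this filter. FPKM divides the fragments of a gene by its transcript length and by the library's mapped fragments, so that levels of different genes are compared per length.

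The animals were male C57BL/6J mice, 10 weeks old, which were injected intraperitoneally once a day with saline (the control groups) or with cocaine, a blocker of monoamine reuptake. The tissue was taken 2 h, 24 h or 7 d after the final injection, from a saline and a cocaine group at each time, and no group carried a mutation or a second agent. Each library was made from tissue of 5 animals mixed together, and 60 animals went into 12 libraries, 2 for each of the 6 groups. The tables hold 1 FPKM per group, pooled over both libraries, so there is no value per library and no spread between replicates to set a difference against. The authors' own test columns in these tables were not used here, and each difference below compares 2 pooled values without a test. The read depth behind each value is unknown from the tables.

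Actin monomers join into filaments, and the Arp2/3 complex starts a new filament as a branch on the side of an older one. Actr2 and Actr3 encode Arp2 and Arp3, the actin-like pair that forms the seed of the branch, and the Arpc genes encode the subunits that hold this pair on the mother filament. Wasl, Wasf1 and their relatives switch the complex on, while coronins, glia maturation factors and arpin restrain it or take branches apart. Beta thymosins work at the other end, binding single actin monomers and keeping them out of filaments. Branched actin shapes the heads of dendritic spines, where most excitatory synapses of the cortex sit.

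Markers of cortical neurons were abundant. Slc17a7, the vesicular glutamate transporter of cortical excitatory neurons, lay between 466 and 532 FPKM in the 6 groups, and Camk2a, the calcium kinase of the same cells, between 844 and 1048. Drd1 and Drd2, the dopamine receptors that mark striatal neurons, averaged below 1 FPKM at every time, as did Folr1, Kl and Clic6 of the choroid plexus. The other genes of these lists were detected, with Ppp1r1b, which cortex also expresses, at 46.4 to 57.7 FPKM, Rgs9 at 1.37 to 2.41 and Adora2a at 0.805 to 1.35 among the striatal genes, and Kcnj13 at 1.54 to 2.34 and Ttr at 0.284 to 6.54 among those of the choroid plexus. Differences are given as log2 ratios, log2 of (cocaine FPKM + 1) over (saline FPKM + 1), and a gene is counted as higher or lower when it is past a fold of 1.2, which is 0.263 on that scale. Ratios in brackets below are on this log2 scale.

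The genes spanned a wide range of levels. Tmsb4x, the thymosin that holds most of the sequestered actin in many cells, stood alone at the top with 754, 829 and 1010 FPKM in the saline groups of 2 h, 24 h and 7 d. Arpc3, a small subunit of the complex, came second at 157, 145 and 184 FPKM. Tmsb10, the other beta thymosin among the 10, followed at 133, 113 and 148 FPKM. The saline values of Arpc3 and Tmsb10 overlapped, and so did those of Tmsb10 and Arpc2, one of the 2 subunits that line the mother filament, at 128, 126 and 132 FPKM.

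Lower down the order, Arpc4, the partner of Arpc2, was at 95.9, 106 and 100 FPKM in saline. Its row is a locus named for Arpc4 and Ttll3 together, a tubulin ligase gene next to it, so its value belongs to both. Actr2 was at 92.3, 88.1 and 87.2 FPKM and did not overlap Arpc4 or the next gene. Arpc1a, the propeller-shaped subunit that contacts the activators, was at 73.2, 84.6 and 85.7 FPKM, and Actr3 at 72.2, 76.9 and 76.2 FPKM, with overlapping saline values. Arpc5l and Arpc5 are alternative versions of 1 subunit. The saline groups had Arpc5l at 64.8, 61.6 and 71.1 FPKM and Arpc5 at 34.7, 35.8 and 35.6 FPKM, the lowest level of the 10 genes. These orders carry the limit that each time point was normalized in a comparison of its own.

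**Figure D1:**
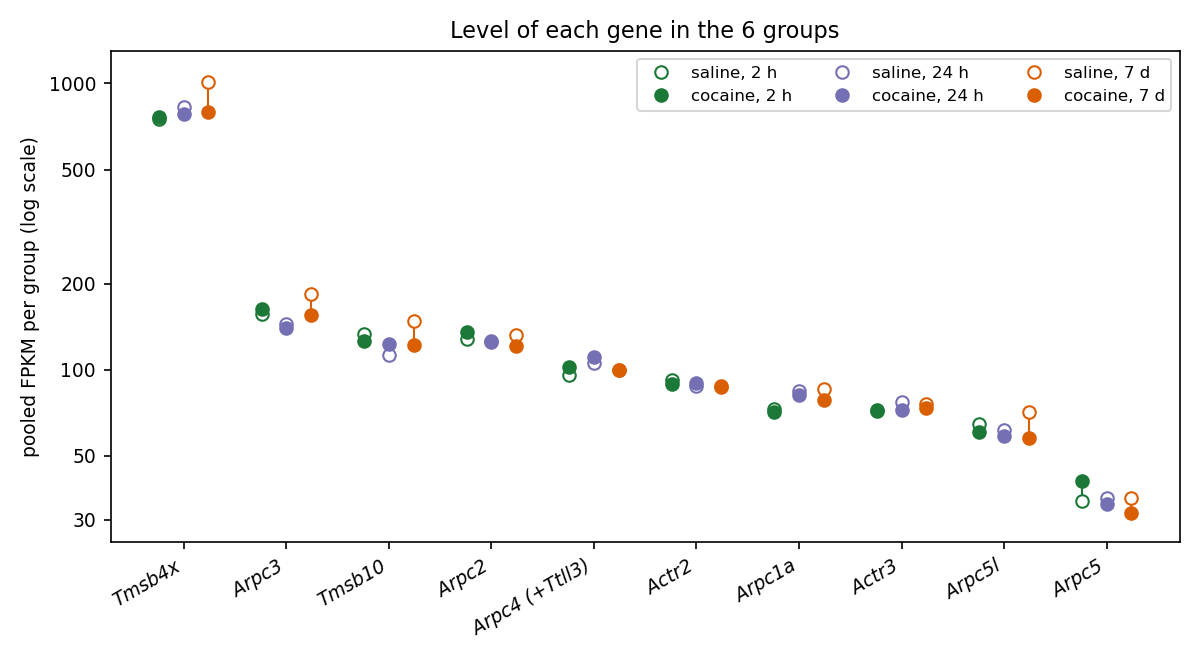
Pooled FPKM (log scale) of each gene in the 6 groups, ordered by the median over the saline groups; open circles are saline, filled circles cocaine, and the colours mark the time after the last injection. The wide gaps between open and filled circles are those of Tmsb4x, Arpc3, Tmsb10 and Arpc5l at 7 d and of Arpc5 at 2 h.

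The loci lie apart from each other on GRCm38, the mouse build that the positions in the tables match. Arpc2 is at chr1:74236084-74268209, Actr3 at chr1:125392905-125435727 and Arpc5 at chr1:152766542-152775597, all on chromosome 1. Arpc3 is at chr5:122391878-122406179 and Arpc1a at chr5:144983519-145108761 on chromosome 5. Arpc4 is at chr6:113378113-113414829, Tmsb10 at chr6:72957347-72958748, Arpc5l at chr2:39008076-39015877, Actr2 at chr11:20062304-20112913 and Tmsb4x at chrX:167207093-167209315. Some of these spans cover other genes of the RefSeq annotation, and how their reads were shared is not visible in the tables. The Arpc1a locus spans Kpna7, Gm33904, Gm4871 and 1700018F24Rik, the Arpc3 locus overlaps Gm32853, and at 7 d the Arpc5 locus ran from 152516757 and took in Rgl1, Gm51749, Gm7278 and Apobec4. At 7 d the Arpc4 locus was also wider, from 113377976 to 113419348, and overlapped Rpusd3.

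At 2 h after the last injection the 10 genes moved no single way. The median log2 ratio was 0.00, with 5 genes above and 5 below 0 and a range from -0.10 to 0.23, against a median of 0.02 and quartiles of -0.07 and 0.12 over all genes. No gene of the 10 was past the fold of 1.2 in either direction, where 7.52% of all genes were higher and 4.73% lower. Other scalings moved all genes together: 10 of the 10 were higher when the groups were divided by their total FPKM (median 0.83) or by that of protein-coding genes (0.40), and 3 were lower when divided by that of named genes from 1 to 10000 FPKM (-0.21). Of the protein-coding sum at 2 h, the Trbc2 locus alone held 62.7% in saline and 47.4% in cocaine. Any difference in such tissue may lie in the number of cells of a type or in the RNA per cell. These cannot be told apart here.

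Arpc5 gave the highest value at 2 h. Saline was at 34.7 FPKM and cocaine at 40.8, a log2 ratio of 0.23, and 90.4% of all genes had a lower ratio. That cocaine value was the highest of all 6 groups for Arpc5, whose 3 saline values lay within a factor of 1.03 of each other. Its alternative, Arpc5l, was at 64.8 FPKM after saline and 60.4 after cocaine, a log2 ratio of -0.10 and the lowest of the 10. Arpc2 was at 128 FPKM in saline and 136 in cocaine (0.08), and the locus of Arpc4 at 95.9 and 102 (0.08). Arpc3 was at 157 and 163 FPKM (0.06). The filament-lining pair thus had the same small log2 ratio. The actin-like subunits were near level, with Actr2 at 92.3 FPKM in saline and 89.1 in cocaine (-0.05) and Actr3 at 72.2 and 71.5 (-0.01). Arpc1a was at 73.2 and 71.1 FPKM (-0.04). Tmsb4x was at 754 FPKM in saline and 764 in cocaine (0.02), and Tmsb10 at 133 and 126 (-0.08), so that the thymosins lay on either side of 0.

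Blood genes differed between the same pair of groups. All 5 red blood cell genes listed (Hba-a1, Hba-a2, Hbb-bs, Hbb-bt and Alas2) were higher in cocaine at 2 h, by a median log2 ratio of 0.64 and with a summed level of 323 FPKM in saline and 504 in cocaine, and their part in the values of the 10 genes was not tested. Among 10 microglial genes, 1 was higher at 2 h (Tmem119, 11.3 and 14.4 FPKM), and the list had a median log2 ratio of 0.07. All 5 astrocyte genes (median 0.15) and all 5 endothelial genes (0.13) were above 0 at 2 h, with 0 past the fold. Of 6 oligodendrocyte genes, 5 were below 0 (median -0.10). The part of these lists in the values of the 10 genes was not tested.

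At 24 h the range of the 10 ratios was the narrowest of the 3 times. The median was -0.05, with 3 genes above and 7 below 0, and the range ran from -0.09 to 0.12. All genes together had a median of 0.01 and quartiles of -0.07 and 0.08. Again 0 of the 10 genes were past the fold of 1.2, where 4% of all genes were higher and 3.44% lower. Division by total FPKM put 10 of the 10 higher (median 0.32). Division by the protein-coding sum put 10 of the 10 lower (-0.79). Of that sum the Trbc2 locus alone held 10.1% in saline and 47.2% in cocaine. The shares of all genes past the fold under these scalings were not computed. Tmsb10 had the highest value, at 113 FPKM in saline and 123 in cocaine (0.12), and that saline value was the lowest of its 6 groups. Tmsb4x was at 829 FPKM in saline and 781 in cocaine (-0.09). Once more the thymosins were on opposite sides of 0, with the order of 2 h exchanged.

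Among the subunits at 24 h, the Arpc4 locus was at 106 FPKM in saline and 111 in cocaine (0.06), and Actr2 at 88.1 and 89.8 (0.03). Actr3 had the lowest ratio, with 76.9 FPKM in saline and 72.4 in cocaine (-0.09). The Arpc5 value of 2 h did not recur, with 35.8 FPKM in saline and 34.1 in cocaine (-0.07). Arpc5l gave the same ratio, at 61.6 and 58.7 FPKM (-0.07). Arpc1a was at 84.6 and 81.9 FPKM (-0.05), Arpc3 at 145 and 140 (-0.05) and Arpc2 at 126 and 125 (-0.02). All 6 oligodendrocyte genes listed were below 0 at this time, with a median log2 ratio of -0.21, and all 5 astrocyte genes, with a median of -0.22; summed levels were 803 and 669 FPKM for the first list in saline and cocaine and 367 and 327 FPKM for the second. Their part in the values of the 10 genes was not tested.

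At 7 d the values leaned to one side. The median log2 ratio was -0.15, with 8 genes below 0, although it was -0.03 once the median of genes of like transcript length was taken off, -1.62 when each group was divided by its total FPKM, 0.08 when it was divided by the summed FPKM of named genes between 1 and 10000, and 0.43 when it was divided by the summed FPKM of protein-coding genes. All genes had a median of -0.01 and quartiles of -0.12 and 0.10. Of the 10 genes 3 were lower by the fold of 1.2, where 9.01% of all genes were, and 0 were higher, where 4.87% of all genes were. The 3 were Tmsb4x, Tmsb10 and Arpc5l, which were instead at 0.24, 0.30 and 0.28 when the groups were divided by the summed FPKM of protein-coding genes, a sum of which the Trbc2 locus alone held 86.9% in saline and 82.8% in cocaine. Arpc3 stopped just short of the fold.

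Tmsb4x stood at 1010 FPKM in saline and 797 in cocaine at 7 d, a log2 ratio of -0.34, and 4.91% of all genes had a lower one. Tmsb10 was at 148 FPKM in saline and 122 in cocaine (-0.27). In each thymosin, the saline value at 7 d was the highest of the 6 groups. The remaining 5 values of Tmsb4x lay between 754 and 829 FPKM, and the 3 cocaine values were within a factor of 1.04 of each other for Tmsb4x and 1.03 for Tmsb10, against 1.34 and 1.31 for the saline values. For Tmsb10 the saline value of 24 h also stood apart, at 113 FPKM below the other 5, and these comparisons between tables carry the limit that each was normalized on its own.

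Arpc5l had 71.1 FPKM in saline and 58 in cocaine at 7 d (-0.29), and Arpc3 had 184 and 155 (-0.25). Both had their highest value of the 6 groups in saline at 7 d, and their cocaine values spanned a factor of 1.04 for Arpc5l and 1.17 for Arpc3. Arpc5 was at 35.6 and 31.7 FPKM (-0.16). Its saline value matched those of the other times and its cocaine value was the lowest of the 6. The Arpc5 locus was wider at 7 d than at those times. Arpc1a was at 85.7 FPKM in saline and 78.3 in cocaine (-0.13), and Arpc2 at 132 and 121 (-0.13). Actr3 was at 76.2 and 73.8 FPKM (-0.05). The actin-like partner Actr2, at 87.2 and 87.9 FPKM (0.01), and the Arpc4 locus, at 100 in both groups (0.00), lay at or just above 0. Subunits of 1 complex thus ran from -0.29 to 0.01 at 7 d. Arpc5l and Arpc3 were at the low end, and Actr2, Actr3 and the Arpc4 locus near 0. Less the median of genes of like transcript length, Arpc5l was at -0.17 and Arpc3 at -0.04. On that scale Actr2 was at -0.01, Actr3 at -0.02 and Arpc4 at 0.03.

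**Figure D2:**
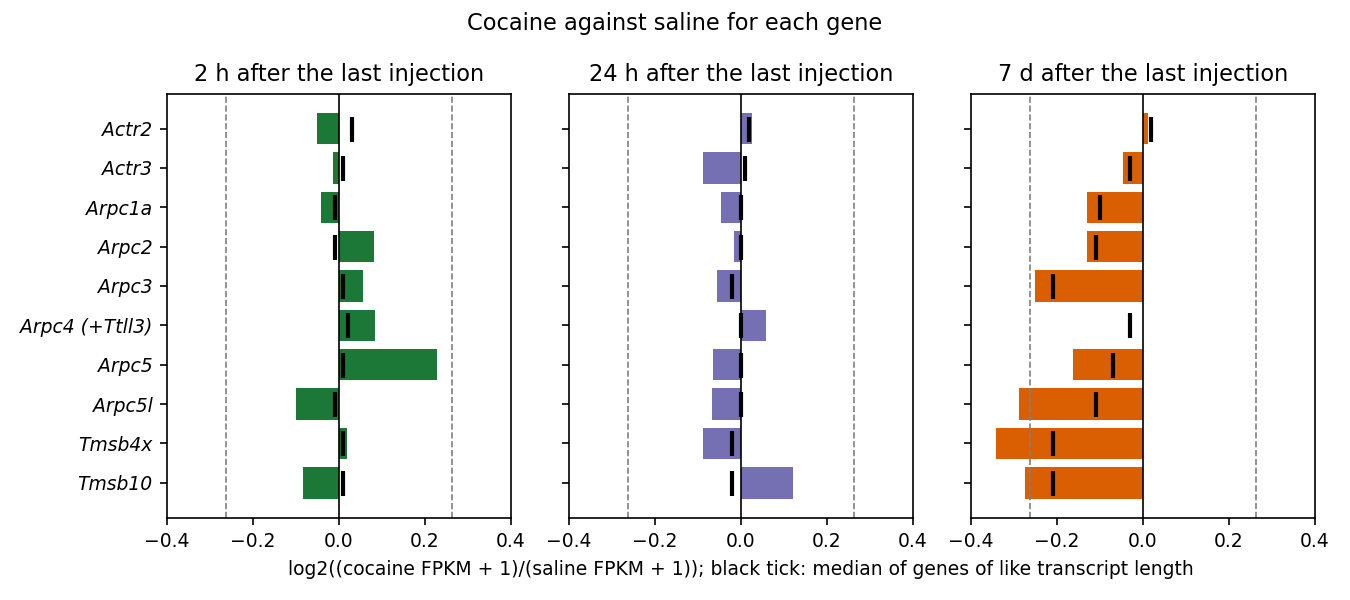
Log2 ratio of cocaine to saline for each gene at 2 h, 24 h and 7 d (bars), with the fold of 1.2 as dashed lines and the median of genes of like transcript length as black ticks. On the deposited scale the bars of Tmsb4x, Arpc5l and Tmsb10 pass the dashed line at 7 d (under division by the summed FPKM of protein-coding genes they turn to 0.24, 0.28 and 0.30), and most bars at 7 d end near their tick.

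Across the 3 saline groups, 6 of the 10 genes (Arpc1a, Arpc2, Arpc3, Arpc5l, Tmsb4x and Tmsb10) had their highest value at 7 d. The cocaine value at 7 d lay between the saline values of 2 h and 24 h for 6 genes. It was below both for 4 (Arpc2, Arpc5, Arpc5l and Actr2) and above both for 0. The shares of all genes with these orders were not computed, so the counts only describe the 10 genes. Genes with the shortest transcripts also had a median log2 ratio of 0.22 in saline, 7 d over 2 h. In the same group of treatment, 7 d over 2 h, Tmsb4x had a log2 ratio of 0.42 in saline and 0.06 in cocaine. Arpc3 had 0.23 in saline and -0.07 in cocaine. Arpc5 and Arpc2 moved more in cocaine, with 0.04 in saline and -0.35 in cocaine for Arpc5 and 0.05 and -0.16 for Arpc2. Arpc5 had both its highest and its lowest value of the 6 groups in cocaine, at 2 h and at 7 d. The Arpc5 locus was wider at 7 d and took in other genes, which limits each comparison of Arpc5 with that time. Actr2 had -0.08 in saline and -0.02 in cocaine.

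The order of the genes at 7 d followed the length of their transcripts. The 3 shortest, Tmsb10 (690 nt), Tmsb4x (864 nt) and Arpc3 (899 nt), were among the 4 lowest ratios, and the longest, Actr2 (3631 nt), had the highest. Spearman's rho between length and log2 ratio was 0.88 over the 10 genes at 7 d, and 0.85 without the shared Arpc4 locus. Over the 11431 genes with a known length it was 0.48, and the genes share the same libraries, so these values describe the tables and are not over independent replicates. At 2 h rho was 0.21 over the 10 genes and 0.16 over all genes, and at 24 h it was -0.02 and 0.09.

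Genes were therefore placed in 20 groups of equal number by transcript length. The shortest group, of 571 genes with up to 899 nt, had a median log2 ratio of -0.21 at 7 d, and 40.8% of its genes were lower by the fold of 1.2. The longest group had a median of 0.12. Tmsb4x, Tmsb10 and Arpc3 all belong to the shortest group, and 22.9%, 37.5% and 42.7% of its genes had a lower ratio than theirs. Less the median of its group, Tmsb4x was at -0.13, Tmsb10 at -0.06 and Arpc3 at -0.04. Arpc5l, with 1339 nt, had the lowest value of the 10 on this scale, -0.17, where Tmsb4x had been the lowest before, in a group whose median was -0.11 and where 11% of 571 genes were lower than it. Arpc5 was at -0.09 and the other 5 genes between -0.03 and 0.03. So 9 of the 10 genes lay below the median of their group at 7 d, but none by the fold of 1.2.

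A tilt with length was also seen between 2 h and 7 d within each treatment, compared across tables that were normalized separately. It ran the other way from that of cocaine to saline, with the shortest group above the longest, and was wider in saline. Only the shortest and the longest group were compared. From 2 h to 7 d, the shortest group had a median log2 ratio of 0.22 in saline and -0.01 in cocaine, and the longest had -0.16 in saline and -0.10 in cocaine. The part of the libraries or their RNA in this tilt was not tested, since the tables hold no value per library.

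**Figure D3:**
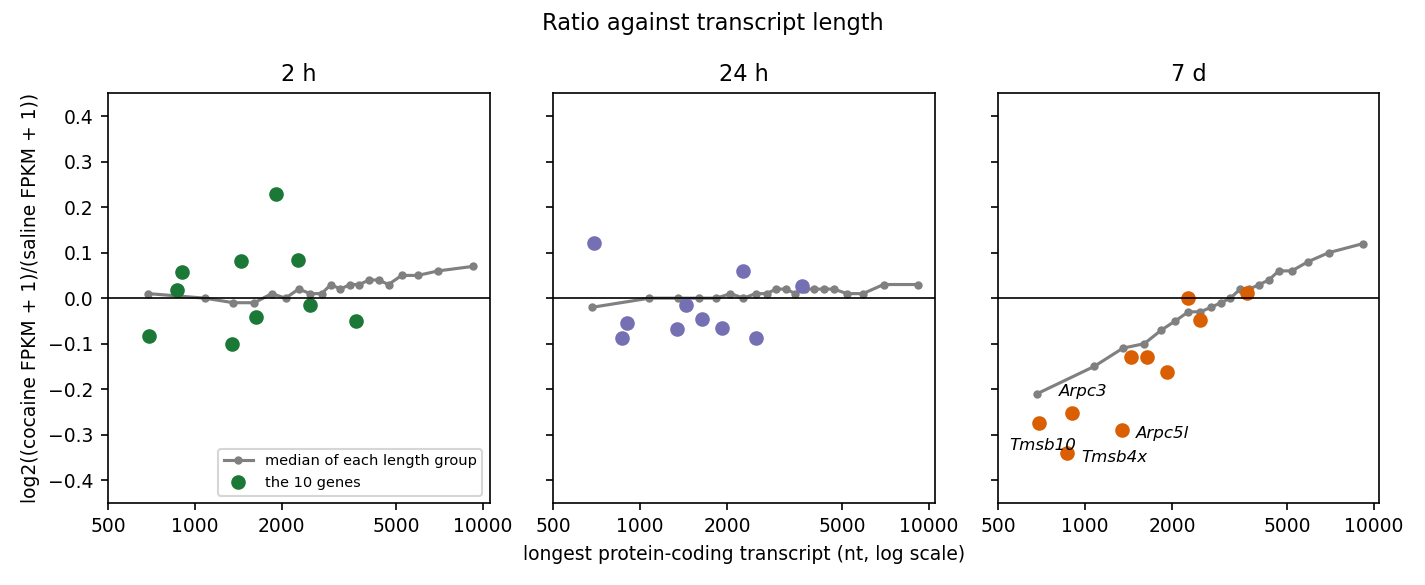
Log2 ratio of cocaine to saline against the length of the longest protein-coding transcript (nt, log scale) at 2 h, 24 h and 7 d; coloured points are the 10 genes and the grey line joins the medians of 20 groups of genes by length. The grey line is nearly flat at 2 h and 24 h and climbs from -0.21 to 0.12 at 7 d, where the 10 genes lie along or under it.

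Marker genes of other cell types were read at 7 d as well. None of the 10 microglial genes listed was past the fold, with a median log2 ratio of -0.07 and summed levels of 295 FPKM in saline and 285 in cocaine. All 5 astrocyte genes were above 0 at 7 d, 2 of them past the fold (Gfap, 31.4 and 38.5 FPKM, and Gja1, 61.3 and 74.2), and so were all 5 endothelial genes, with Flt1 past it (9.08 and 11.5). All 5 red blood cell genes were also above 0, with summed levels of 452 and 529 FPKM. Neurod6, a transcription factor of cortical excitatory neurons, was lower in cocaine at 37.2 and 28.1 FPKM (-0.39). Its list of 5 genes had a median of 0.05, with 3 above and 2 below 0. Ttr, a choroid plexus gene, was at 0.284 and 6.54 (2.56), with a saline value near the floor. Kcnj13 of the same list was at 2.04 and 2.16 (0.06), and Folr1, Kl and Clic6 averaged below 1 FPKM. The part of these marker genes in the values of the 10 genes was not tested.

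Several subunits exist in 2 versions, and the balance between them was compared as a share of their summed FPKM. At 2 h Arpc5 made up 34.8% of Arpc5 plus Arpc5l after saline and 40.3% after cocaine. Its share was 36.8% in both groups of 24 h, and 33.3% and 35.3% at 7 d. The share at 2 h in cocaine was the highest of the 6, while the sum of both genes hardly differed there, at 99.5 FPKM in saline and 101 in cocaine. At 7 d the sum was 107 in saline and 89.7 in cocaine. The Arpc5 locus was wider at 7 d, which limits the comparison with that time. The encoded proteins are identical at 70.2% of positions.

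Arpc1b, the other version of Arpc1a and the main one in blood cells, was a minor partner in this tissue. It was at 5.46 FPKM after saline and 6.24 after cocaine at 2 h. Its values were 6.97 and 6.69 at 24 h and 5.68 and 6.51 at 7 d. Arpc1a held from 91.9% to 93.8% of the pair in the 6 groups. Actr3b, the Arp3 relative found in brain, was more abundant, with 44.2 FPKM after saline and 48.5 after cocaine at 2 h. At 24 h its values were 46 and 50.5, and at 7 d 45.6 and 45.9. Actr3 made up 62%, 62.6% and 62.6% of that pair in saline and 59.6%, 58.9% and 61.6% in cocaine, a lower share in cocaine at each of the 3 times. Actr3 and Actr3b are identical at 90.2% of protein positions, against 36% for Actr2 and Actr3. The thymosins, identical at 75% of the shorter protein, kept a steady balance, with Tmsb4x at 85% to 88% of their sum.

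**Figure D4:**
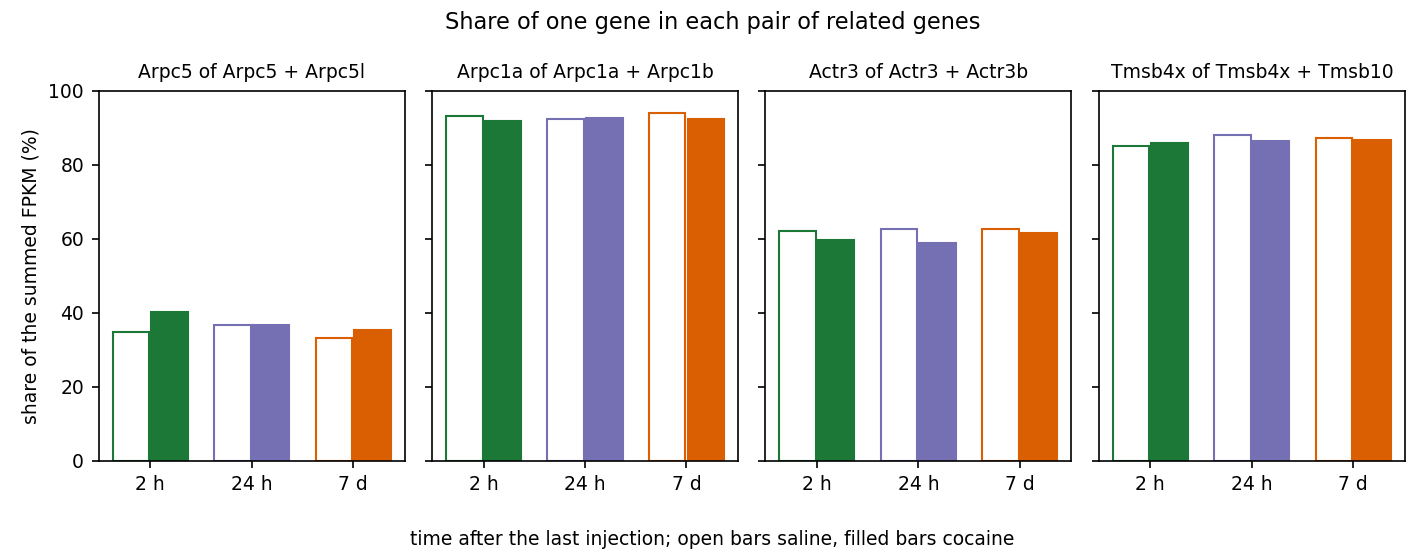
Share (%) of the summed FPKM held by the first gene of each of 4 pairs in saline (open bars) and cocaine (filled bars) at 2 h, 24 h and 7 d. Arpc5 has its highest share in cocaine at 2 h (40.3%). Actr3 is lower in cocaine at each time, by cocaine less saline of -2.4, -3.7 and -0.9 points. The other 2 pairs range from -1.6 to 0.9 points, so the gap of Actr3 at 7 d is no wider than theirs.

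The rest of the pathway was read from 9 lists of actin genes, 103 genes in all, which gave 92 measured loci above the filter. At 2 h 6 of the 92 were higher and 2 lower by the fold of 1.2, at 24 h 0 and 1, and at 7 d 4 and 3. Among all genes, 7.52% were higher by this fold 2 h after the last injection, while 4.73% were lower. The higher and lower shares of all genes were 4% and 3.44% after 24 h. After 7 d they were 4.87% and 9.01%. Whether the lists differed from all genes was not tested.

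Among the other thymosins, the row shared by Tmsb15b1, Tmsb15b2 and Tmsb15l, beta thymosins of the developing brain, was at 25.7 FPKM in saline and 15.4 in cocaine at 7 d (-0.70). At 2 h it was at 16.6 and 16.1 FPKM (-0.05) and at 24 h at 16.1 and 15.8 (-0.03). Here too the saline value of 7 d was the highest, above 5 values between 15.4 and 16.6. Genes of like transcript length had a median of -0.21 at 7 d. Ptma, an alpha thymosin gene that has no part in actin binding, was at 191 and 179 FPKM at 7 d (-0.09).

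Of 9 nucleation promoting factors, which activate the complex, 1 was higher at 7 d, 6 were above and 3 below 0, and the median was 0.05; the difference from the subunits was not tested. That gene was Wasf2, at 2.37 and 3.28 FPKM at 7 d (0.35) and 2.99 and 3.91 at 2 h (0.30). Wasf1, the main WAVE protein of neurons, was at 88 and 95.9 FPKM at 7 d (0.12), and Wasl, the neuronal WASP, at 26.5 and 28.3 (0.09). Cttn, which steadies branches, had the lowest ratio of the list, at 29.7 and 28.3 FPKM (-0.07). Genes of like transcript length had medians at 7 d of 0.08 for Wasf2, -0.02 for Wasf1, 0.04 for Wasl and -0.00 for Cttn.

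Among 16 partners in the WAVE and WASH complexes the median at 7 d was 0.01, with 8 above and 8 below 0 and 0 past the fold. At 2 h 2 of the 16 were higher. One was Wipf3, at 28.5 and 37.8 FPKM (0.40), and the other Wipf2, at 10.3 and 13.5 (0.35), both of which bind proteins of the WASP family. Cyfip2, a large subunit of the WAVE complex, was at 129 and 145 FPKM at 7 d (0.17). Brk1, its smallest subunit, was at 161 and 143 (-0.17), so that their uncorrected ratios lay on both sides of 0. Genes of like transcript length had a median of 0.10 for Cyfip2, and no transcript length was found for Brk1.

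The 10 inhibitors and debranchers had a median of -0.08 at 7 d. Gmfg, a glia maturation factor of blood cells that removes branches, was lower at each time, all at low levels: 2 h gave 2.24 and 1.3 FPKM, 24 h 2.08 and 1.34, and 7 d 2.58 and 1.85. Its brain relative Gmfb was at 54 and 51.4 FPKM at 7 d (-0.07), and the coronin Coro1a at 61.1 and 56 (-0.13). Arpin, which blocks the complex directly, had the highest ratio of the list, at 4.38 and 4.91 FPKM (0.13).

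Actins and their monomer binders were the most abundant list, with a summed level of 2308 FPKM in saline and 2291 in cocaine at 7 d and 0 of 12 past the fold at any time. Cfl1, the cofilin that severs filaments, was at 650 and 632 FPKM at 7 d (-0.04), and its muscle relative Cfl2 at 24.4 and 21.4 (-0.18). Actb, beta actin, was at 397 and 451 FPKM (0.18), the highest of the list, and Actg1, gamma actin, at 486 and 477 (-0.03). On the deposited scale Tmsb4x and Tmsb10 were thus below 0 at 7 d, as were Actg1 and 9 of the 12 genes of this list, while Actb was above 0. Genes of like transcript length had medians of -0.21 for Tmsb4x and Tmsb10 and -0.07 for Actb.

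In the 3 other lists few genes passed the fold. Fmnl1, a formin, had the largest ratio at 2 h of all 92 loci, at 26.4 FPKM after saline and 44 after cocaine (0.71). A day later, at 24 h, it was at 24.3 and 26.9 (0.14). Inf2, another formin, was at 23.1 and 18.7 FPKM at 2 h (-0.29), Fmn1 at 3.57 and 4.67 at 7 d (0.31), and Fhod3 at 13.6 and 12.4 (-0.13). Spire1, a nucleator that is no formin, was at 31.5 and 33.4 FPKM at 7 d (0.08). Eps8, a capping protein, was at 5.98 and 7.79 FPKM at 7 d (0.33), and the capping protein subunits Capza2 and Capzb at 108 and 100 (-0.10) and 109 and 107 (-0.03). Of the upstream genes, Rac3, a small GTPase of neurons, was at 23.5 and 18.6 FPKM at 7 d (-0.33). Ssh1, a phosphatase of cofilin, was at 1.67 and 2.48 at 7 d (0.38) and at 1.74 and 2.44 at 2 h (0.33). Cdc42, which activates Wasl, was at 231 and 204 FPKM at 7 d (-0.18), and Pak1, a kinase below Rac and Cdc42, at 167 and 155 (-0.11).

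**Figure D5:**
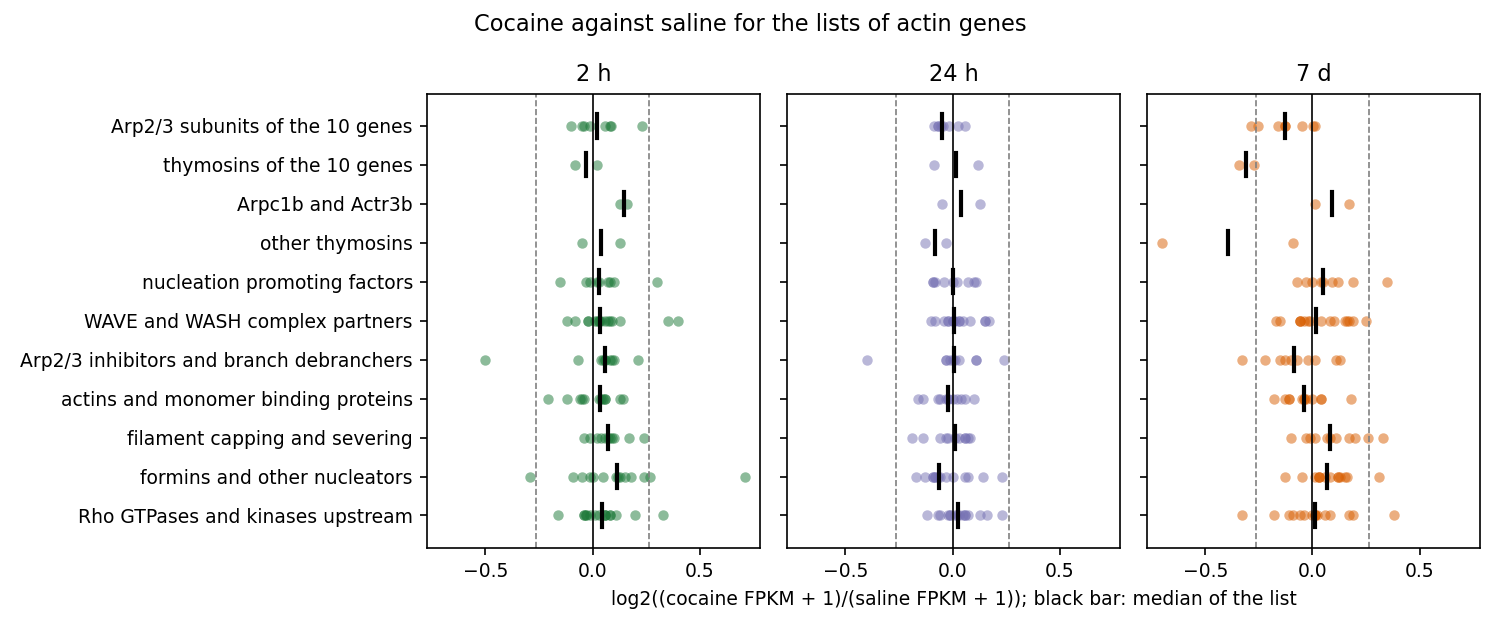
Log2 ratio of cocaine to saline at 2 h, 24 h and 7 d for the 8 Arp2/3 subunits, the 2 thymosins and each of 9 lists of actin genes; each point is a locus, black bars are medians of a list and dashed lines the fold of 1.2. At 7 d the medians of both thymosin sets (-0.31 and -0.40) lie lowest, and that of the nucleation promoting factors is above 0. The ratios are not corrected for transcript length.

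The genes whose 3 ratios were most like the 3 medians of the 10 genes were sought among 5699 genes that averaged 10 FPKM or more at all times, by the straight distance between the ratios. They were Uba2 (0.00, -0.06 and -0.13 at 2 h, 24 h and 7 d), H3f3a, Trappc5, Cnih1 and Nfyc, at distances of 0.013 to 0.018.

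The promoters were searched for 3 motifs on both strands, from 250 bases before to 50 after each start in RefSeq's GRCm38.p6 table, which held 11 promoters for 9 of the 10 genes. The CArG box, bound by SRF, the factor through which free actin monomers control many actin genes, was in 1 of the 11, that of Arpc4, and in 1.63% of all 32851 promoters. The cAMP response element, TGACGTCA, was in 0 of the 11 and in 1.79% of all, and the TATA box, TATAAA, in 0 and in 13.6%. The Arpc4 match is shown with that of Actg1 as a classic actin promoter, 30 bases each on the gene's strand with the CArG box in capitals, at chr6:113377863-113377892 (plus strand, the first base 250 before the start) and chr11:120348566-120348595 (minus strand, the box 90 before the start).
Arpc4: CCTAATTTGGtgcccaacctgaggtcgggc
Actg1: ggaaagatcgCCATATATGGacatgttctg
A match of letters is a description of the window and no measure of binding, and the levels of both genes differed little between the groups at 7 d.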

How the data were processed

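Gene expression was measured by paired-end RNA sequencing of poly-A libraries in 12 libraries of 6 groups. According to the submitters' processing notes, reads were handled with CASAVA 1.8.2, Trimmomatic 0.32, TopHat2 2.0.12 and Cufflinks 2.2.1 with Cuffdiff, and the authors kept uniquely mapped reads. The authors deposited 1 table per time point with a pooled FPKM per group; each table was normalized on its own. Columns with the authors' own fold change, test statistic, p and q values were not used. The saline column carries the prefix C, which could be read as control or cocaine, and the sample descriptions use C for cocaine and CC for control; it was taken as saline, as the heads of the study's supplementary tables have it, and every direction rests on that reading. Library-level values and depth were not analysed here. Starts, counted from 0 in the tables, were moved to 1-based positions; the notes name GRCm38, which the positions match, whereas the methods name mm9.

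Rows were reduced to 1 per gene name (the longest locus), and log2 ratios were taken with a pseudocount of 1 over genes that averaged 1 FPKM or more, as a planned test per library was not possible. Transcript length was that of a symbol's longest coding transcript in GENCODE, found for 85.7%, 84.9% and 85.1% of genes at 2 h, 24 h and 7 d, and identity was computed from its coding sequences. The genes named were the 10 genes and their paralogs, and from each list the highest and lowest ratio at 7 d and the 2 most abundant genes in saline at 2 h. Others past the fold, and Tmsb15b1 beside its row partners, were named after their values were seen, as were single marker genes. Of the 103 pathway symbols, 9 were found by a RefSeq synonym and 3 were not found. The members and lists were chosen with earlier results of these data known. Python 3.11.15, pandas 2.3.3, numpy 2.4.6, biopython 1.88 and matplotlib 3.10.9 were used, and the steps were tested on simulated data. Alternatives were other pseudocounts, filters, scalings and folds, summed rows and correction for length.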

Additional observations from a re-analysis of the deposited data

Results flagged for a closer look

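For 4 genes the pooled ratios of cocaine to saline took opposite signs at 2 times and lay more than a fold of 1.2 apart, and these differences were not tested, since each time gives 1 pooled value per group. For Arpc5 the log2 ratio at 2 h less that at 24 h was 0.29, and less that at 7 d 0.39. The Arpc5 locus was wider at 7 d and took in other genes. The differences of 2 h less 7 d were 0.36 for Tmsb4x and 0.31 for Arpc3, both from ratios near 0 at 2 h. For Tmsb10 the ratio at 24 h less that at 7 d was 0.40, from 0.12 to -0.27. Of these, the values at 7 d less the median of genes of like length were -0.13 for Tmsb4x, -0.06 for Tmsb10, -0.04 for Arpc3 and -0.09 for Arpc5.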

How the results depend on the processing

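Each of the 30 ratios of the 10 genes at 3 times was compared with its main value. A change was called small when below the standard deviation of the gene's log2 saline levels over the 3 times. This does not place the ratios themselves within that spread. All 30 changes were small under a pseudocount of 0.1, no filter on low values, a mean FPKM of at least 10, summed rows and centring on the median of all genes. Less the median of like transcript length, 25 of 30 changes were small, and at 7 d the median of the 10 genes became -0.03 with 0 past the fold. Dividing by the total FPKM of all loci gave medians of 0.83, 0.32 and -1.62 at 2 h, 24 h and 7 d, with 10 of 10 genes past the fold at each time. The median shift of the 10 genes was 0.83, 0.37 and -1.49. Summed FPKM over named genes between 1 and 10000, a scaling chosen after seeing the data, gave -0.21 with 3 lower at 2 h and 0.08 with 0 past the fold at 7 d. The 10 genes shifted by a median of -0.22 and 0.23. Loci under 200 bases made up 1.81% of that sum in saline and 11.3% in cocaine at 2 h. Summed FPKM over protein-coding genes, also chosen after seeing the data, gave medians of 0.40, -0.79 and 0.43 with 10, 10 and 9 genes past the fold. The 10 genes shifted by a median of 0.40, -0.74 and 0.58. This scaling turned Arpc5l, Tmsb4x and Tmsb10 at 7 d to 0.28, 0.24 and 0.30. The Trbc2 locus alone held 62.7% of that sum in saline and 47.4% in cocaine at 2 h. Its shares were 10.1% and 47.2% at 24 h, and 86.9% and 82.8% at 7 d. At a fold of 1.1, 1 gene was past it at 2 h and 5 at 7 d, against 34.4%, 24.8% and 40.4% of all genes at the 3 times; at 1.5, 0 were at 7 d, against 2.59%, 2.3% and 2.58%. No paired analysis was possible because the tables hold pooled values without replicate numbers, and for the same reason no replicate could be left out. The tables give no depth behind a value; read totals that the study states were not used, so what depth limits was not computed.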
